A study of Mus musculus with 6 samples.

Results

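The TAM receptor system was described in N2A, an established line of mouse neuroblastoma cells, after knockdown of Pax6. The TAM receptors are the receptor tyrosine kinases Tyro3, Axl and Mertk, and their ligands are the secreted proteins encoded by Gas6 and Pros1. The 5 genes were taken by symbol from 19938 genes with a probe set that names a single gene, and each had 1 such probe set. The set was chosen by the fall of Gas6 between control and knockdown arrays, a measured value. The differences, intervals and calls of all 5 genes in that contrast are therefore only a description and serve as no test of the set.

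The study is about Paupar, a long non-coding RNA transcribed upstream of Pax6. It reduced PAX6, a transcription factor of brain and eye development, to learn how far Pax6 regulation could explain the transcripts that respond to Paupar. Cells were transiently transfected with 1.5 µg of a non-targeting control vector (3 arrays) or of a Pax6 knockdown construct (3 arrays), and RNA was taken after 3 days. The knockdown hairpin was expressed from a U6 promoter, and because no sorting step is described, any untransfected cells of a well contributed to its RNA. In such bulk samples fewer cells of a type and less RNA per cell cannot be told apart. The values are deposited log2 summaries, and differences are given in log2 units as the knockdown mean less the control mean, with n = 3 arrays per group. The oligonucleotide below is shown because it encodes the only Pax6 hairpin that the study lists, with the loop and the end of the hairpin in capitals, and Pax6 lies on mouse chromosome 2.

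Pax6sh896FOR: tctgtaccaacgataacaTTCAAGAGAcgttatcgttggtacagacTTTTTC

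Gas6 and protein S, the product of Pros1, bind phosphatidylserine on the surface of apoptotic cells through a domain rich in gamma-carboxyglutamate, a modified residue whose synthesis needs vitamin K. Their other end engages the extracellular part of a TAM receptor, so that the ligand bridges a dying cell to a phagocyte. Gas6 can activate all members of the receptor family, whereas protein S is known as a ligand of Tyro3 and Mertk and as a cofactor in anticoagulation. In the nervous system Tyro3 is the receptor most associated with neurons, while Axl and Mertk are prominent in microglia and other phagocytes. TAM signalling is known for clearance of apoptotic cells, for restraint of innate immune responses and for cell survival through PI3 kinase and AKT.

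Pax6 itself was reduced. It stood at 8.79, 8.82 and 8.81 in control cells and at 8.48, 8.30 and 8.50 after knockdown, without overlap and with a difference of -0.38 (SE 0.071, limma adjusted p = 0.0382). This call was lost without control replicate 1, 2 or 3 or without knockdown replicate 3 (adjusted p up to 0.180). At a false discovery rate (FDR) of 10%, the threshold used by the study for this knockdown, 762 of 11424 tested genes passed, of which 319 were higher and 443 lower. The study used a low-expression filter of its own, and the count it reported differs from 762. Here a gene was tested if it exceeded the array-wide median on 3 or more of the 6 arrays. Of 12 sympathetic neuroblastoma markers with a probe set, 11 were above this filter. The exception was Nefl, a neurofilament gene. The mean over these 12 markers lay between 10.91 and 10.99 in control arrays and between 10.70 and 10.79 in knockdown arrays. Of the 11 tested, 4 (36.4%) were lower and 0 higher at 10% FDR, beside 6.67% of all tested genes called. The differences of these 11 ran from -1.08 to 0.12, with a median of -0.21. Of 10 macrophage and microglia markers only Cx3cr1 was above the filter, and Csf1r, Ptprc and Aif1 were below it. Their mean lay between 6.67 and 6.70 in control arrays and between 6.56 and 6.74 in knockdown arrays. Of 10 fibroblast and endothelial markers 4 were above the filter, with means between 7.24 and 7.32 and between 7.20 and 7.29. The part of these markers in the results below was not tested.

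Gas6 was lower in every knockdown array. It stood at 9.67, 9.63 and 9.64 in control cells and at 9.23, 8.86 and 9.18 after knockdown. The control arrays lay close together, the knockdown arrays were spread more widely, and knockdown replicate 2 was the lowest. Control cells averaged 9.65 ± 0.022 (SD, n = 3) and knockdown cells 9.09 ± 0.20 (SD, n = 3), a difference of -0.56 (SE 0.099), which left 68.0% of the control signal. Between arrays of the same replicate number Gas6 differed by -0.44, -0.77 and -0.46. Without knockdown replicate 2 the difference was -0.44.

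Pros1, the other ligand gene, had overlapping groups. Its values were 5.82, 5.80 and 5.85 in control arrays and 5.74, 5.88 and 5.75 in knockdown arrays. All 6 values lay below the filter, where summaries of this kind compress differences. Control cells averaged 5.83 ± 0.026 (SD, n = 3) and knockdown cells 5.79 ± 0.075 (SD, n = 3). In a fit with no low-value filter the difference was -0.038, with a 95% interval from -0.19 to 0.12.

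Tyro3 was the only TAM receptor gene above the filter, and it too was lower in every knockdown array. Its values were 8.80, 8.63 and 8.66 in control arrays and 8.43, 8.31 and 8.39 in knockdown arrays. The highest knockdown array was below the lowest control array. Control cells averaged 8.70 ± 0.087 (SD, n = 3) and knockdown cells 8.37 ± 0.062 (SD, n = 3), a difference of -0.32 (SE 0.069), which left 79.9% of the control signal. Within replicate numbers 1, 2 and 3 the differences were -0.37, -0.33 and -0.28, closer to each other than those of Gas6.

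Axl, the receptor that depends on Gas6 as its ligand, had nearly equal means. Its values were 6.925, 6.878 and 6.890 in control arrays and 6.823, 6.995 and 6.873 in knockdown arrays. The knockdown arrays lay on both sides of the control arrays. Control cells averaged 6.90 ± 0.025 (SD, n = 3) and knockdown cells 6.90 ± 0.089 (SD, n = 3). With no low-value filter the difference was -0.00087, with a 95% interval from -0.16 to 0.16. Mertk, the receptor best known for phagocytosis by macrophages and the retinal pigment epithelium, had values of 6.45, 6.49 and 6.46 in control arrays and 6.45, 6.59 and 6.52 in knockdown arrays. Its groups overlapped as well, with means of 6.47 ± 0.022 (SD, n = 3) and 6.52 ± 0.067 (SD, n = 3). The difference with no low-value filter was 0.053, with a 95% interval from -0.10 to 0.21. Axl and Mertk lay below the filter on all arrays, where summaries of this kind compress differences. A difference within these intervals could not be told from none. Levels of different genes are not set against each other, because probe sets differ in how strongly they bind.

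**Figure D1:**
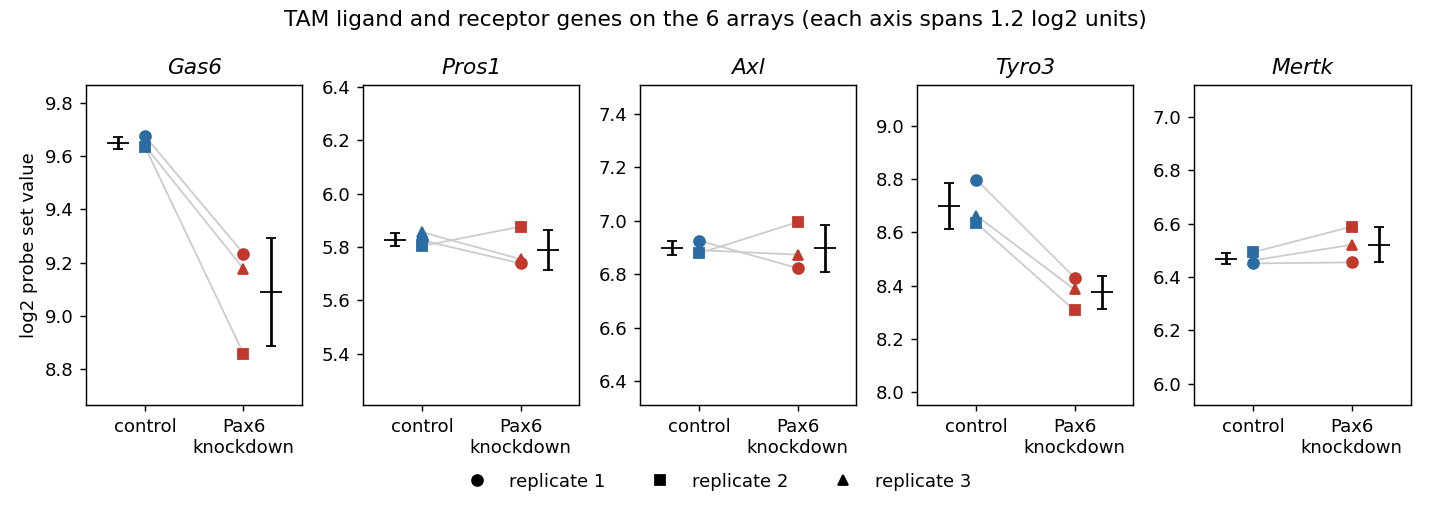
Log2 probe set value (vertical axis, each spanning the same range) of the TAM ligand and receptor genes in control and Pax6 knockdown arrays (horizontal axis), with marker shapes for replicate numbers, grey lines joining arrays of the same number, and black bars for the group mean and SD. The knockdown arrays of Gas6 and Tyro3 lie below all control arrays, while those of Pros1, Axl and Mertk overlap with them.

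Of the 5 genes, 2 were tested, and both were among the genes called lower at 10% FDR. Of all tested genes 6.67% were called in either direction, 3.88% lower and 2.79% higher, and in 25.6% the groups did not overlap (11.7% with knockdown below and 13.9% with knockdown above). Because the fall of Gas6 chose the set, nothing is read from this count. As a description of the values that chose the set, both calls were lost without control replicate 1, 2 or 3 or without knockdown replicate 3, and that of Tyro3 also with no low-value filter. Over the settings in which the genes were tested the difference ranged from -0.63 to -0.44 for Gas6 and from -0.36 to -0.27 for Tyro3.

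**Figure D2:**
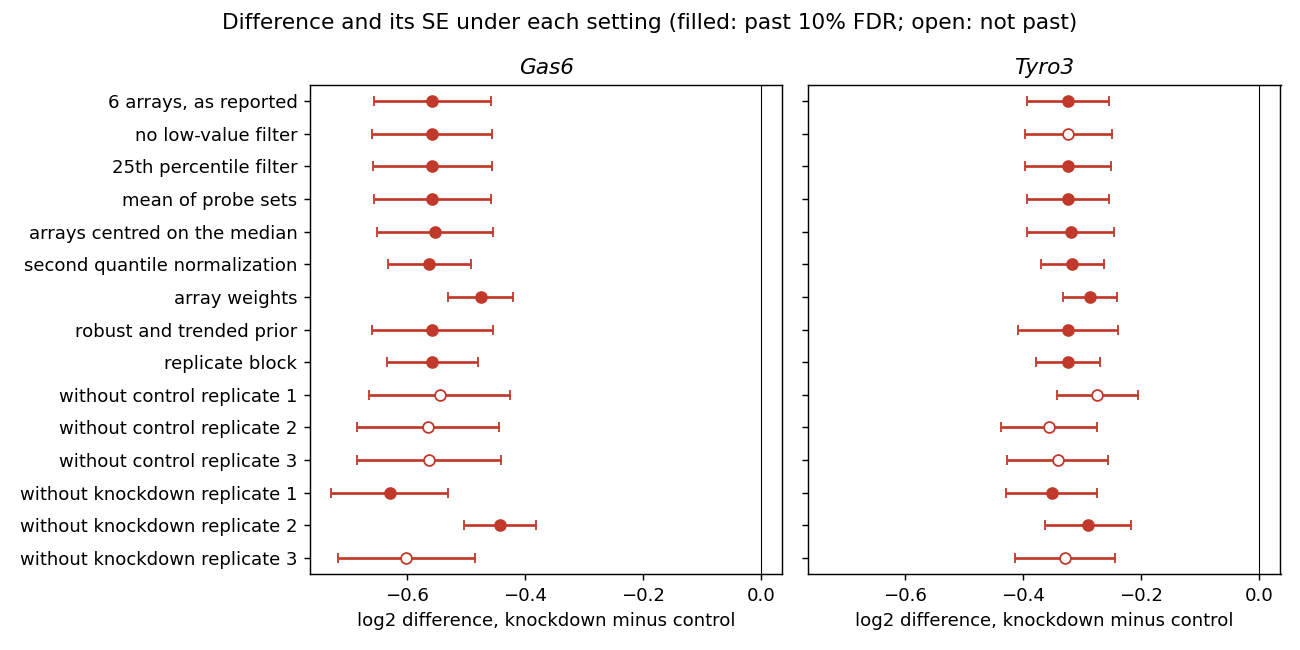
Log2 difference, knockdown minus control, with its SE (horizontal axes) for Gas6 and Tyro3 under each processing setting (vertical axis), with filled points for settings in which the gene passed 10% FDR and open points for those in which it did not. All points lie below 0, and the open points are those without control replicate 1, 2 or 3 or knockdown replicate 3 and, for Tyro3, with no low-value filter.

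The promoters of Gas6 and Tyro3, the members that were lower, are shown as RefSeq gives them (build GRCm38.p6), at chr8:13494486-13494785 on the minus strand and chr2:119799264-119799563 on the plus strand. Capitals mark the GC box GGGCGG, the core of sites bound by SP1-type factors, on either strand.

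Gas6: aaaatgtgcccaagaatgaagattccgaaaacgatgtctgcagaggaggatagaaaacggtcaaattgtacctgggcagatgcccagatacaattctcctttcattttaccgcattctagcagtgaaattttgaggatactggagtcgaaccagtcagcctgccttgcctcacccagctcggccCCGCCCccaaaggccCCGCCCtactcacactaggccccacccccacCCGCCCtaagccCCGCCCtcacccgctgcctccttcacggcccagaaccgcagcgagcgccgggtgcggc

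Tyro3: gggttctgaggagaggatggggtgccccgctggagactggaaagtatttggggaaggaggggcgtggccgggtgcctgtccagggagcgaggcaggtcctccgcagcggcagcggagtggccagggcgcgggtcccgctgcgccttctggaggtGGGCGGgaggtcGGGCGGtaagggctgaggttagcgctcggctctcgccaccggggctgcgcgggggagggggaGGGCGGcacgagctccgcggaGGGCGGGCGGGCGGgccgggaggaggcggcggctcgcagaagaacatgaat

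All 5 genes matched a promoter of 300 bases in that table. The GC box occurred 4 times in the Gas6 promoter and 6 times, some overlapping, in that of Tyro3. It also occurred in the promoters of the other members, with 5 matches for Pros1, 2 for Axl and 4 for Mertk, and 35.7% of all 32851 promoters hold it. The letters TTCACGC, a stretch of the consensus bound by the paired domain of PAX6, were in none of the 5 windows on either strand and in 1.26% of all promoters. The homeodomain motif TAATTA was likewise in none of the 5 and in 5.29% of all promoters. The share of G and C was 58.3% for Gas6, 66.7% for Pros1, 73.3% for Tyro3, 60.3% for Axl and 66.0% for Mertk, so all 5 lay above the median of 52.7% over all promoters. These matches describe the windows and carry no information on binding.

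Around the TAM genes 10 pathway lists were described. They held 194 distinct genes, of which 181 had a probe set with a single symbol and 109 were tested. By limma 13 of the 109 were lower at 10% FDR, 0 were higher and 96 did not pass. This is 11.9% of them, beside 6.67% of all tested genes. Their median difference was -0.032, beside 0.017 over all tested genes. Blocking on replicate number gave 23 lower and 6 higher, including all 13, and without control replicate 2 the count was 0. In the reported fit, the counts of single lists below stand beside 3.88% of all tested genes lower, 2.79% higher and 25.6% without overlap. Other fits called more of the 11424 tested genes. The replicate block called 1018 lower and 1024 higher, and a second quantile normalization 782 lower and 601 higher. Array weights, a fit that leaned mostly on knockdown replicate 3 among the knockdown arrays, called 1600 lower and 2639 higher.

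Of 9 tested genes of the vitamin K cycle and of proprotein cleavage, which mature the ligands, 1 fell, 0 rose and 8 did not pass. The share called was 11.1%, beside 6.67% of all tested genes, and the median difference was -0.033. This count depended on the fit, since 4 were lower and 1 was higher with the replicate block. That fit called 1018 of all 11424 tested genes lower and 1024 higher. The gene that fell was Calu, which encodes the endoplasmic reticulum protein calumenin, known to inhibit gamma-carboxylation. Its values were 12.47, 12.42 and 12.27 in control arrays and 12.15, 11.90 and 12.05 in knockdown arrays, a difference of -0.35 (SE 0.085, limma adjusted p = 0.0719). The groups did not overlap, but leaving out knockdown replicate 3 or any 1 of the control arrays ended the call (adjusted p up to 0.257). So did having no low-value filter (adjusted p = 0.156) or a filter at the 25th percentile (0.112). Ggcx, the carboxylase that modifies Gas6 and protein S and a gene chosen after its values were seen, stood at 10.19, 10.25 and 10.19 against 10.12, 9.90 and 9.84 and did not pass (-0.26, limma adjusted p = 0.139). Of 11 other genes with a gamma-carboxyglutamate domain, such as those of coagulation factors, 0 lay above the filter.

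Among other ligands and bridging molecules 0 of 5 tested genes passed by limma, and 1 had an unadjusted p under 0.05. That gene was Lgals3, which encodes galectin-3, described as a further ligand of Mertk. Its values were 7.87, 7.95 and 7.87 in control arrays and 8.07, 8.27 and 8.11 in knockdown arrays. All knockdown arrays were above the control arrays, but the difference of 0.26 (SE 0.072) missed the threshold (limma adjusted p = 0.104, 0.0336 with the replicate block, and between 0.00955 and 0.278 over all settings tried). Mfge8, which bridges phosphatidylserine to integrins, had 8.61, 8.61 and 8.52 in control arrays and 8.83, 8.58 and 8.62 in knockdown arrays. Its groups overlapped (0.099, adjusted p = 0.581).

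Of 10 tested receptors and signals of apoptotic cell uptake outside the TAM family 5 were lower, 0 were higher and 5 did not pass. The share called was 50%, beside 6.67% of all tested genes, and the median difference was -0.20. Megf10, an engulfment receptor of astrocytes, had 8.86, 8.81 and 8.83 in control arrays and 8.34, 8.12 and 8.38 in knockdown arrays. Its difference of -0.55 (SE 0.079, limma adjusted p = 0.0193) was close in size to that of Gas6. The call was lost without control replicate 2 (adjusted p = 0.108) and held without any other single array.

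Integrins built from the Itgav subunit with the Itgb5 or the Itgb3 subunit bind Mfge8, and their genes did not all move one way. Itgav had 10.83, 10.81 and 10.85 in control arrays and 10.60, 10.38 and 10.30 in knockdown arrays (-0.41, SE 0.083, limma adjusted p = 0.0477). Itgb5 had 12.79, 12.92 and 12.80 against 12.58, 12.56 and 12.53 (-0.27, SE 0.062, adjusted p = 0.0624). Itgb3, chosen after its values were seen, had 9.66, 9.66 and 9.69 against 9.91, 9.76 and 9.82 (0.16, SE 0.063, adjusted p = 0.235). The groups of these 3 genes did not overlap, with Itgav and Itgb5 lower and Itgb3 above its control arrays without passing. Groups without overlap were found in 25.6% of all tested genes. Cd47, the signal that restrains engulfment, fell by 0.28 (SE 0.071, adjusted p = 0.0813). Lrp1, an endocytic receptor that binds calreticulin and was chosen after its value was seen, fell by 0.35 (SE 0.093, adjusted p = 0.0912). Its values were 9.42, 9.61 and 9.79 in control arrays and 9.26, 9.26 and 9.24 in knockdown arrays. Itgav, Itgb5 and Cd47 each lost the call without control replicate 1, 2 or 3 or without knockdown replicate 3, when adjusted p reached up to 0.279. With no low-value filter all of them lost it too (adjusted p = 0.110, 0.151 and 0.182). A filter at the 25th percentile ended the calls of Itgb5 (0.108) and Cd47 (0.132). Both changes of filter also ended the call of Lrp1, as did leaving out control replicate 2 or 3 or knockdown replicate 1 or 3. The list had 2, 0 and 1 genes called without control replicates 1, 2 and 3, and 1 without knockdown replicate 3.

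Of 10 tested genes that set phosphatidylserine exposure, the lipid signal that TAM ligands bind, 2 fell, 0 rose and 8 did not pass (median -0.088). Here 20% were called, beside 6.67% of all tested genes. Tmem30a, the shared subunit of the flippases that keep the lipid inside, had 12.58, 12.51 and 12.43 in control arrays and 12.24, 12.21 and 12.28 in knockdown arrays (-0.26, SE 0.064, limma adjusted p = 0.0730). Ano6, a calcium-activated scramblase that moves it outward, fell by 0.22 (SE 0.061, adjusted p = 0.0958). The 2 genes have opposed roles and both were lower. Of 11 tested genes of receptor shedding and turnover, 2 fell, 0 rose and 9 did not pass (median -0.11). Here 18.2% were called, beside 6.67% of all tested genes. Lrig1, which promotes the degradation of receptor tyrosine kinases, had 10.37, 10.43 and 10.48 in control arrays and 10.13, 10.07 and 10.12 in knockdown arrays (-0.32, SE 0.060, adjusted p = 0.0382). Ncstn, a gamma-secretase subunit, fell by 0.22 (SE 0.059, adjusted p = 0.0956). For Tmem30a, Ano6 and Ncstn, leaving out any 1 array other than knockdown replicate 2 ended the call, and for Lrig1 leaving out control replicate 2, control replicate 3 or knockdown replicate 3 did so (adjusted p up to 0.328). Centring the arrays on their medians also ended the calls of Ano6 (adjusted p = 0.157) and Ncstn (adjusted p = 0.149), and filters at the 25th percentile or none ended those of Tmem30a, Ano6 and Ncstn. Shedding and turnover genes numbered 5 lower and 0 higher in the blocked fit, beside 1018 lower and 1024 higher of all 11424 tested genes.

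Of 23 tested adaptors and kinases of proximal TAM signalling, the machinery downstream of the receptors, 0 passed by limma and 3 had an unadjusted p under 0.05. In the blocked fit 2 were higher and 0 lower, beside 1024 higher and 1018 lower of all 11424 tested genes. With array weights 8 were higher and 0 lower, beside 2639 higher and 1600 lower of all tested genes. Their differences ran from -0.092 to 0.31 with a median of 0.041. In 6 of the 23 all knockdown arrays lay above the control arrays and in 0 below them, while 13.9% of all tested genes lay above and 11.7% below. The lowest p was that of Pik3cb, a catalytic subunit of PI3 kinase, with 9.34, 9.10 and 9.33 in control arrays and 9.72, 9.43 and 9.54 in knockdown arrays (0.31, SE 0.097, adjusted p = 0.138). Ranbp9, a scaffold described to bind Axl, followed with 0.20 (SE 0.069, adjusted p = 0.171). With the replicate block the adjusted p was 0.0249 for Pik3cb and 0.0782 for Ranbp9, and over all settings tried it lay between 0.0152 and 0.392 and between 0.0152 and 0.443.

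In the branch through which TAM receptors are described to restrain interferon and cytokine signalling, 0 of 10 tested genes passed by limma and 3 had an unadjusted p under 0.05. The replicate block, a second quantile normalization and array weights each gave 3 lower and 0 higher. Those fits called 1018, 782 and 1600 of all 11424 tested genes lower. Irf9, a subunit of the interferon-activated transcription factor complex, had 9.497, 9.573 and 9.261 in control arrays and 9.230, 8.997 and 9.058 in knockdown arrays (-0.35, SE 0.099, adjusted p = 0.107). Its knockdown arrays were all below its control arrays. Socs2, a suppressor of cytokine signalling, differed by -0.30 (SE 0.088, adjusted p = 0.121). The blocked fit gave adjusted p = 0.0393 for Irf9 and 0.0317 for Socs2. Over all settings tried it lay between 0.0161 and 0.340 for Irf9 and between 0.00880 and 0.300 for Socs2. With the mean of its 2 probe sets Socs2 differed by -0.24 (limma adjusted p = 0.214). Among factors described to regulate TAM gene transcription 0 of 7 tested genes passed, and 0 had an unadjusted p under 0.05. The lowest p were those of Wwtr1, a coactivator of TEAD factors (0.10, adjusted p = 0.396), and Sp1 (0.14, adjusted p = 0.428).

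**Figure D3:**
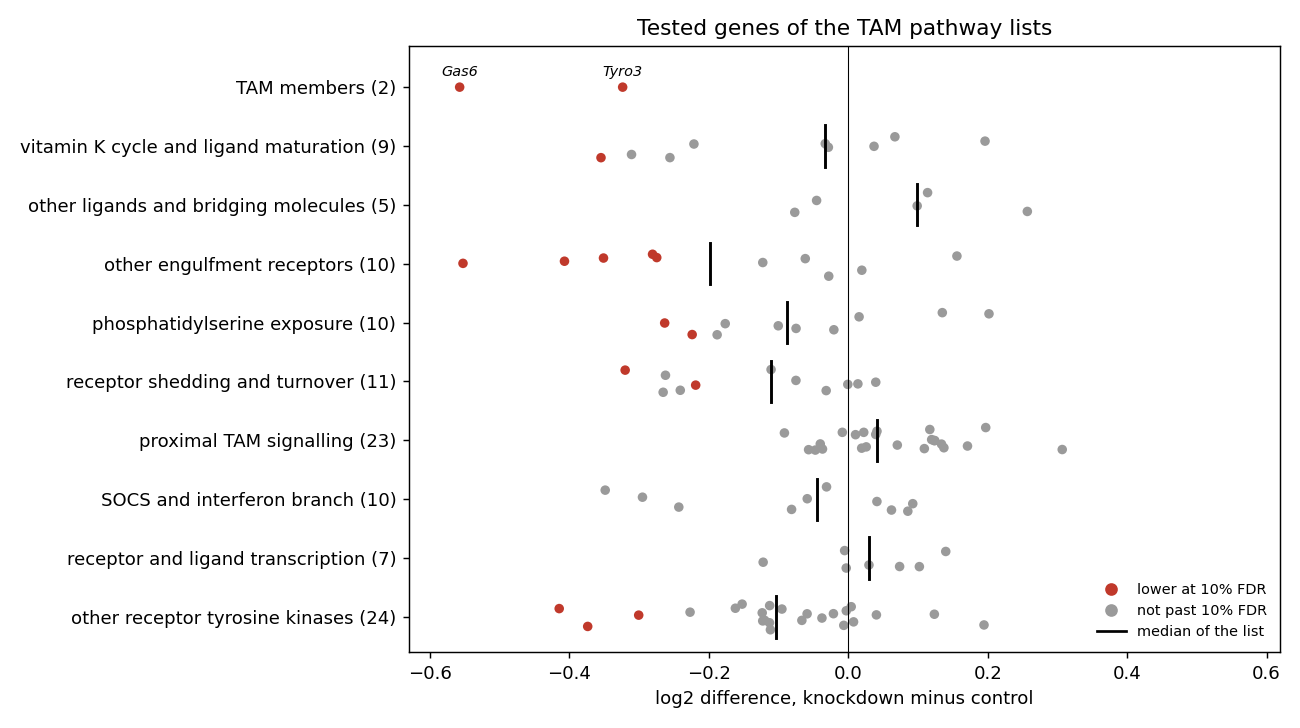
Log2 difference, knockdown minus control (horizontal axis), of each tested gene of the TAM genes and of the pathway lists (vertical axis, number of tested genes in brackets; vertical scatter within a row is arbitrary), with red points for genes lower at 10% FDR, grey points for genes that did not pass and black bars for list medians. No gene of these lists was higher at 10% FDR, and apoptotic cell uptake receptors have the lowest list median, at -0.20.

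Tyro3 was set beside the other receptor tyrosine kinases, since its family shares the kinase fold. Of 24 tested kinases of this class outside the TAM family 3 were lower, 0 were higher and 21 did not pass, with a median of -0.10. The share called was 12.5%, beside 6.67% of all tested genes. Blocking on replicate number, 4 were lower and 1 was higher, beside 1018 lower and 1024 higher of all 11424 tested genes. Ephb3, an ephrin receptor, had 7.81, 7.72 and 7.79 in control arrays and 7.34, 7.42 and 7.32 in knockdown arrays (-0.41, SE 0.061, limma adjusted p = 0.0207). Mst1r, the receptor for macrophage-stimulating protein, had 8.67, 8.87 and 8.79 against 8.40, 8.28 and 8.52 (-0.37, SE 0.083, adjusted p = 0.0600). Ltk, a relative of Alk, had 9.05, 9.10 and 9.13 against 8.79, 8.79 and 8.80 (-0.30, SE 0.057, adjusted p = 0.0387). The groups of these 3 genes did not overlap, which was so for 25.6% of all tested genes. Leaving out control replicate 2 or knockdown replicate 3 ended all 3 calls, that of Ltk ended also without control replicate 3, and that of Mst1r without any 1 array other than knockdown replicate 2 (adjusted p up to 0.235). With no low-value filter the calls of Ltk (adjusted p = 0.104) and Mst1r (0.137) ended as well. The difference between Tyro3 and any of these kinases was not tested.

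The nearest genes with a probe set on either side of each TAM gene were read for changes around the loci. Those beside Gas6 on chromosome 8, Grk1 and 1700029H14Rik, lay below the filter and had overlapping groups, with differences of -0.10 and 0.0061. Beside Tyro3 on chromosome 2, Rpap1 had 8.922, 8.985 and 8.998 in control arrays and 8.983, 9.021 and 8.987 in knockdown arrays (0.029, limma adjusted p = 0.852). On its other side Mga differed by 0.065 (SE 0.093, adjusted p = 0.789), and this difference was -0.054 with array weights. Neither of these nearest neighbours of Tyro3 was called. Genes farther from the locus were not looked up by position, nor were genes named for other reasons, such as Ltk. Whether other called genes lie near Tyro3 is therefore not shown. Beside Mertk, Tmem87b was lower in every knockdown array (-0.30, SE 0.11, adjusted p = 0.208) and Anapc1 higher in every one (0.13, adjusted p = 0.336), but neither passed. With the replicate block Tmem87b did pass (adjusted p = 0.0956), as it did with array weights (0.0235), a second quantile normalization (0.0864) and without knockdown replicate 1 (0.0933). Hnrnpul1, next to Axl on chromosome 7, lay above in every knockdown array (0.17, adjusted p = 0.207), and Cyp2s1 on the other side of Axl lay below the filter. The neighbours of Pros1, Stx19 and Epha3, lay below it too.

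The pattern of Gas6 over the 6 arrays was compared with that of every other tested gene by Pearson correlation, as a description that includes the difference between the groups. The most alike were Gadd45b (r = 0.996), Bcl2 (0.996), Tmc7 (0.995), Slc35e2 (0.993), Nabp1 (0.993) and Pram1 (0.993). Gadd45b is a stress-induced growth arrest gene and Bcl2 is an inhibitor of apoptosis. All 6 were called lower by limma, with differences between -0.43 and -0.25, beside 3.88% of all tested genes lower. Genes picked for a pattern like that of Gas6 share its fall between the groups, so nothing is read from this count. Each call ended when knockdown replicate 3 or any 1 control array was left out (adjusted p up to 0.269). The calls of Gadd45b, Slc35e2 and Nabp1 also ended with no low-value filter or one at the 25th percentile (adjusted p between 0.101 and 0.199). Centring the arrays on their medians ended that of Gadd45b (0.108). As for Gas6, the lowest array of all 6 genes was knockdown replicate 2. Bcl2, for example, had 10.19, 10.18 and 10.18 in control arrays and 9.90, 9.71 and 9.86 in knockdown arrays. With each group centred on its own mean, r with Gas6 was between 0.951 and 0.998 for these 6 genes. They were picked for likeness over these same arrays, which share the position of knockdown replicate 2. The centred r is therefore no separate check. The least alike were Sphk2, a sphingosine kinase gene (r = -0.989), the sialyltransferase gene St6galnac6 (-0.986) and Lgals3 (-0.985). None of these 3 passed 10% FDR. Lgals3 was highest on knockdown replicate 2, the array on which Gas6 was lowest.

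**Figure D4:**
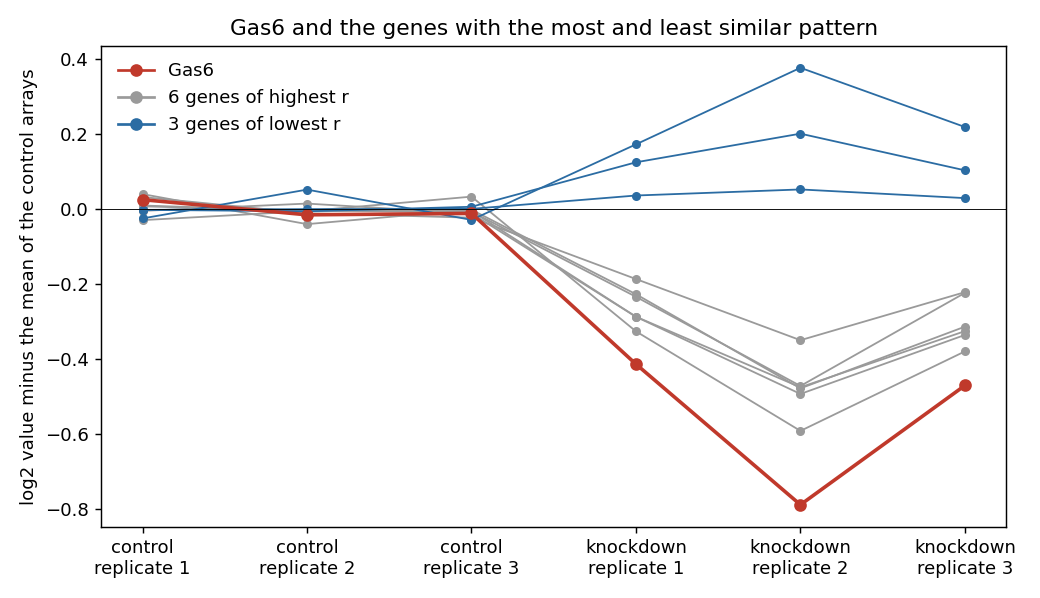
Log2 value minus the mean of the control arrays (vertical axis) on each of the 6 arrays (horizontal axis) for Gas6, the 6 genes of highest and the 3 genes of lowest Pearson correlation with it, with lines that only join the points of a gene. Gas6 and the 6 most alike genes are lowest, and the 3 least alike are highest, on knockdown replicate 2.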

How the data were processed

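The data are 6 whole-transcript mouse gene arrays, hybridised with labelled DNA made from 200 ng of RNA. The authors deposited log2 summaries per probe set, made with RMA background correction and between-array quantile normalization. Software versions and annotation build: not given in the sources used here. Depth does not apply to arrays, and their number limits the precision.

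Of 35556 probe sets, 21789 carried 1 gene symbol in the platform annotation, 1621 several and 12146 none. For each of 19938 genes the probe set with the highest mean was kept, and 11424 genes passed the low-value filter (above the array median on at least 3 arrays). The groups were compared with limma 3.58.1 (R 4.3.3) with Benjamini-Hochberg adjustment over all tested genes, and the procedure was tested on simulated data. Samples are described as biological replicates. The reported fit did not pair the arrays, and the labels do not say whether replicate numbers mark pairs. Deviations of same-numbered arrays correlated at 0.57, 0.32 and 0.23, so a replicate block was tried as an alternative. Control replicate 3 and knockdown replicate 2 also correlated, at 0.18.

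Members and lists were chosen with earlier results of these data known. By rule the text names the members, Pax6, up to 4 called genes of each list (or the 2 of lowest p), the nearest genes of each member, and the 6 genes most and 3 least like Gas6. Filters, normalization, weights, prior variance, a replicate block and left-out arrays were tried as alternatives.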

Additional observations from a re-analysis of the deposited data

How the results depend on the processing

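The count of 762 genes called became 245 without a low-value filter, 389 when that filter was set at the 25th percentile, 1383 with a second quantile normalization, 4239 with array weights and 2042 with the replicate block, and ranged from 51 to 1285 when 1 array was left out (51 without control replicate 2, 56 without knockdown replicate 3). Array weights gave 2639 higher and 1600 lower. That fit weighted knockdown replicates 1, 2 and 3 by 0.43, 0.31 and 5.38, and the control replicates by 0.52, 1.31 and 2.02. Its knockdown values therefore rested mostly on replicate 3. Leaving out knockdown replicate 2 gave 820 higher and 465 lower. Of the TAM genes, 1 was called with no low-value filter and 0 to 2 with 1 array left out. The 75th percentile filter left none of them to test, and Pax6 was not tested there either. The count of 13 pathway genes became 3 without a low-value filter, 6 when it was set at the 25th percentile, 23 with a second quantile normalization, 49 with array weights and 29 with the replicate block, and ranged from 0 to 15 with 1 array left out. All 13 were among those called with a second quantile normalization, array weights and the replicate block, and 11 were among the 13 called with arrays centred on the median. The Pax6 difference ranged from -0.42 to -0.32 with 1 array left out. Among named genes the direction of Mga alone turned, to -0.054 with array weights. The causes were not tested. Differences of genes below the filter are limited by their signal over background.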
